A study of Mus musculus with 16 samples.

Results

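This account describes 10 mouse genes that handle drugs and other foreign compounds: the efflux pump genes Abcb1a, Abcb1b, Abcc1, Abcc2, Abcc3, Abcc4 and Abcg2, and the genes of 3 receptors that sense such compounds, Nr1i2 (the pregnane X receptor, PXR), Nr1i3 (the constitutive androstane receptor, CAR) and Ahr (the aryl hydrocarbon receptor). They were taken by gene symbol, not by their values. All 10 were among the 20790 genes counted at day 2, the 20658 counted at day 4 and the 19964 counted on both days, and all 10 passed the filter on low counts in every comparison.

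The counts come from RNA sequencing of epithelial organoids, small self-organising cultures, grown from the jejunum of C57BL/6 mice of the genotype Villin-CreERT2; Hnf4aflox/flox. Control and treated organoids alike carried the recombinase CreERT2, driven by the promoter of Villin, a gene of the intestinal epithelium, and loxP-flanked alleles of Hnf4a, a nuclear receptor of intestine and liver. Treated organoids received 0.5 µM 4-hydroxytamoxifen (4OHT), which activates CreERT2, for 24 h before a passage, and controls received the vehicle DMSO. With 4 libraries in each case, the groups were DMSO at day 2, 4OHT at day 2, DMSO at day 4 and 4OHT at day 4. The labels' protocol describes a harvest 4 days after the last passage, and day 2 is used as the time point label gives it. No samples of organoids without floxed alleles were used here, so an action of 4OHT or of the active recombinase and the loss of Hnf4a cannot be told apart. Whether replicates came from separate animals or cultures is not stated, so every p-value here reflects only how these libraries varied, which could be technical variation.

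Library totals were 63.8 M to 93.3 M counts. Hnf4a levels, as CPM (counts scaled to library size with TMM factors), were 1018 ± 30.7 (SD, n = 4) in day 2 controls against 508.5 ± 22.2 after 4OHT. Day 4 controls had 970.1 ± 6.95 CPM against 471 ± 16.1 after 4OHT, and the treatments did not overlap. These counts are summed over the gene and do not resolve the floxed part. On the second principal component, 4OHT day 4 replicate 4 lay at 31.63, apart from the other 4OHT libraries of that day (11.64 to 21.67), and each count of the 10 genes was also made without it.

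Efflux pumps of the ABC family use ATP to drive drugs, bile salts and conjugated metabolites out of cells. In enterocytes, P-glycoprotein (encoded in rodents by Abcb1a and Abcb1b), ABCC2 and ABCG2 sit in the apical membrane and return compounds to the lumen, whereas ABCC1 and ABCC3 sit in the basolateral membrane. PXR and CAR bind DNA with the retinoid X receptor and AHR with ARNT, and their target genes include cytochromes P450, conjugating enzymes and some of these pumps.

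Abcb1a and Abcb1b are neighbouring copies on chromosome 5 (GRCm38 chr5:8660077-8748575 and chr5:8798147-8866315, plus strand). Their coding sequences, 3831 bases each, were 88.3% identical over 3816 aligned positions, and the longest stretch without a difference was 338 bases. Of all 50-base windows, 17.0% in the Abcb1a transcript and 18.3% in the Abcb1b transcript also occur in the transcript of another gene, and 768 of these 840 and 779 windows lie in the other copy. Reads from such stretches cannot be assigned by sequence, and how the authors' counting treated them is not given in the sources used here. The pair of stretches below holds the 90 aligned coding bases that differ most (positions 1883 to 1972 in Abcb1a and 1892 to 1981 in Abcb1b, counted from the start codon, GENCODE M21), shown because reads here tell the copies apart. Capitals mark the 29 differences.
Abcb1a: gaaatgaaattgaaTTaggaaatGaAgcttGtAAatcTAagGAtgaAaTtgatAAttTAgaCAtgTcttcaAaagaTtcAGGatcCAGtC
Abcb1b: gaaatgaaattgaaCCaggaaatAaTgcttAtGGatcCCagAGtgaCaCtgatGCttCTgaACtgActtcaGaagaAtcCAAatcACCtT

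Promoter windows of 250 bases before the RefSeq start (GRCm38.p6) were found for 7 of the 10 genes, all but Abcc1, Abcc3 and Ahr. Each was searched on both strands for GCGTG (the core bound by AHR with ARNT), TGACNNNGC (the antioxidant response element), AGGTCA and AGTTCA (core sites of nuclear receptors), CAAAGTCC (an HNF4 core) and TGANTCA (AP-1). TGACNNNGC can overlap AGGTCA on the opposite strand and TGANTCA, though no such overlap occurred in these windows, and a match is a description, not a bound site. The windows of 4 genes are shown because their counts changed with 4OHT at day 2: Abcb1b and Abcc4 rose, Nr1i2 and Nr1i3 fell. Capitals mark matches. Abcb1b is at chr5:8797897-8798146 (plus strand), Abcc4 at chr14:118706220-118706469 (minus strand), Nr1i2 at chr16:38294825-38295074 (minus strand) and Nr1i3 at chr1:171213720-171213969 (plus strand).
Abcb1b: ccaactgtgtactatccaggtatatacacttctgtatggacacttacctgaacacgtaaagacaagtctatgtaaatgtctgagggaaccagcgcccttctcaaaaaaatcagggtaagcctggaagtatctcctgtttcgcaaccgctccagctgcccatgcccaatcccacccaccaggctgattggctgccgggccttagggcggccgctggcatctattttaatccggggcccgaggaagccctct
Abcc4: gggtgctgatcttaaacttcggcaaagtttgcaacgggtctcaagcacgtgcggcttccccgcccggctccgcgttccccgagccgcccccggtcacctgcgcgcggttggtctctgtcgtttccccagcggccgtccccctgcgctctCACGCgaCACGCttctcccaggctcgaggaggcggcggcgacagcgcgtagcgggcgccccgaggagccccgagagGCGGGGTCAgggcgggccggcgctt
Nr1i2: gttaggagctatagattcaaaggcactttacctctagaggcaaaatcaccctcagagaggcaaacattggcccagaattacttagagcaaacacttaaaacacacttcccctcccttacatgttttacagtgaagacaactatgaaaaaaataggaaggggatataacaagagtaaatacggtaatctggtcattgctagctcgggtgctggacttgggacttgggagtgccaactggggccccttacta
Nr1i3: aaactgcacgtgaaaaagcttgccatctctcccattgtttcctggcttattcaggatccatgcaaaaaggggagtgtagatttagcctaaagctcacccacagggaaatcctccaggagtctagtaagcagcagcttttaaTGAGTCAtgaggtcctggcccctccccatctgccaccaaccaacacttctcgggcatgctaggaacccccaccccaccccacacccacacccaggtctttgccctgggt

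Abcc4 held 2 GCGTG and 1 TGACNNNGC, all on the other strand, Nr1i3 held 1 TGANTCA, and Abcb1b and Nr1i2 held none of the 6 motifs in this window. Of the windows not shown, those of Abcc2 and Abcg2 held AGGTCA, 1 and 2 times, Abcc2 also held 1 TGACNNNGC, and that of Abcb1a held 1 AGTTCA. The Abcb1a window starts from a RefSeq start site that lies outside the GENCODE gene, so it may not be the promoter in use here. CAAAGTCC was in none of the 7. Among all 32851 RefSeq windows, GCGTG was found in 28.2%, AGGTCA in 14.0%, AGTTCA in 11.8%, TGACNNNGC in 10.2%, TGANTCA in 6.75% and CAAAGTCC in 1.20%.

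Levels between genes were compared as CPM per kb of merged exon length. In DMSO at day 2, Abcb1a (77.7 ± 7.06; SD, n = 4) and Abcc2 (75.3 ± 8.18) were highest and overlapped, followed by Abcc3 (57.3 ± 1.61) and Nr1i2 (31.9 ± 1.46), each apart from its neighbours. Nr1i3 (12.8 ± 1.42) lay above Abcg2 (9.99 ± 0.809) and Abcc4 (9.49 ± 1.15), which overlapped, as did Abcc1 (4.46 ± 0.486) and Ahr (4.26 ± 0.369). Abcb1b was lowest in every group, at 0.196 ± 0.0340 here, 0.312 ± 0.0687 in 4OHT at day 2, 0.0350 ± 0.0240 in DMSO at day 4 and 0.0898 ± 0.0263 in 4OHT at day 4. P-glycoprotein transcripts in these organoids were thus counted almost wholly as Abcb1a: Abcb1b took 0.304% to 0.406% of the counts of the pair in DMSO and 0.396% to 0.761% in 4OHT at day 2. At day 4 its share was 0.0373% to 0.192% and 0.117% to 0.277%, where the lowest share, of DMSO day 4 replicate 3, rests on 7 counts (exact 95% binomial interval 0.0150% to 0.0769%, counting error only).

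By day 4 the order had moved in the middle. Abcb1a (57.9 ± 6.64 CPM per kb in DMSO, 70.1 ± 7.41 in 4OHT) then lay above Abcc2 (46.1 and 49.3) without overlap. Abcc3 (23.6 ± 2.01) overlapped Nr1i2 (26.2 ± 1.45) in DMSO and lay above it in 4OHT (34.0 ± 3.52 against 27.1 ± 1.14). The place of Nr1i3 depends on the length used: of its 4414 merged exon bases, 3304 are also exon of Tomm40l, a mitochondrial import gene on the opposite strand, and per kb of the longest coding transcript Nr1i3 measured 39.9 ± 4.42 in DMSO at day 2, above Nr1i2. Strand use in the counting is not given, so the Nr1i3 counts are uncertain throughout. The place of Abcc1 also depends on the length, as its merged exons span 15092 bases and its longest coding transcript 6792. Per kb of that transcript, Abcc1 measured 9.91 ± 1.08 in DMSO at day 2, beside Abcc4 (10.6 ± 1.28). Ahr measured 4.73 ± 0.410 on that scale, so the overlap of Abcc1 with Ahr holds only per kb of merged exons. In 4OHT at day 2, Abcc1 measured 15.5 ± 1.04, Abcc4 14.45 ± 1.12 and Ahr 6.50 ± 0.106.

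**Figure D1:**
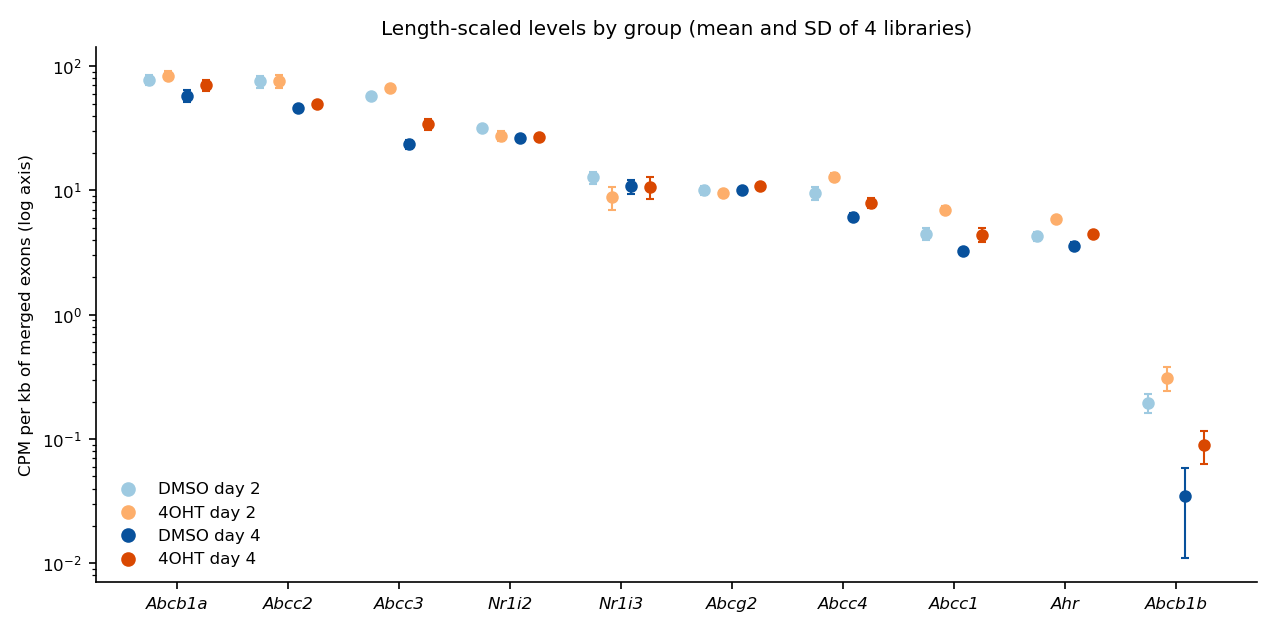
Levels of the 10 genes as CPM per kb of merged exons (log axis) in the 4 groups; points are means and bars the SD of 4 libraries. Abcb1a and Abcc2 are highest and Abcb1b is lowest in every group.

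The comparison of 4OHT with DMSO on each day asked how these genes differ in organoids treated to delete Hnf4a. At day 2, 5 of the 10 genes rose (Abcb1b, Abcc1, Abcc3, Abcc4, Ahr) and 2 fell (Nr1i2, Nr1i3), where 16.9% of all 15897 genes tested rose and 14.3% fell. At day 4 the same 5 rose and 0 fell, against 13.7% and 11.1% of 16040 genes. The median log2 fold change of the 10 genes was 0.18 at day 2 and 0.29 at day 4, and that of all genes tested was near 0 on both days. Calls are at an edgeR adjusted p below 0.05 over all genes. At day 4 the replicate numbers pair the libraries, and with the number as a replicate block 8 genes rose and 0 fell, against 22.8% and 22.2% of all genes. Without 4OHT day 4 replicate 4, 5 of the 10 were called at day 4 (Abcb1a in place of Abcb1b). Fewer cells of a type and less RNA per cell cannot be told apart in these bulk samples.

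Among the apical pumps, the Abcb1a level of the day 4 libraries followed the replicate number. Abcb1a measured 372, 425, 445 and 460.4 CPM in DMSO and 478.5, 502, 441 and 418 CPM in 4OHT at day 2 (replicates 1 to 4, as in all such lists here). The groups overlapped, and the log2 fold change of 0.12 ± 0.08 (SE) did not pass (edgeR adjusted p = 0.248). At day 4 it measured 340.4, 357, 286 and 287 CPM in DMSO and 417, 421, 349 and 348 CPM in 4OHT. Replicates 1 and 2 were the higher ones in both treatments, and 4OHT replicates 3 and 4 fell inside the DMSO range. The fold change was 0.27 ± 0.10 without the block (edgeR adjusted p = 0.0648) and 0.28 ± 0.03 with the replicate block (edgeR adjusted p = 4.66e-05), where 4OHT exceeded DMSO in 4 of 4 pairs, by log2 0.24 to 0.29. It also passed in a fit over all 16 libraries (adjusted p = 0.0292) and by DESeq2 (adjusted p = 0.0387).

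Abcb1b, the second P-glycoprotein gene, was counted 103, 159, 115 and 156 times in DMSO and 152, 152, 168 and 287 times in 4OHT at day 2, which gave 1.32, 1.72, 1.35 and 1.88 CPM against 2.13, 2.00, 2.66 and 3.20 CPM. Every 4OHT library lay above every DMSO library in CPM, and the gene rose by log2 0.68 ± 0.17 (edgeR adjusted p = 0.00891). At day 4 the counts were 24, 19, 7 and 36 in DMSO and 49, 40, 59 and 79 in 4OHT, or 0.259, 0.201, 0.107 and 0.551 CPM against 0.606, 0.494, 0.802 and 0.969 CPM. The highest DMSO library, replicate 4, lay above the lowest 4OHT library, replicate 2. The log2 rise was 1.38 ± 0.39 (edgeR adjusted p = 0.0262), from few counts. Its call ended when any 1 of 4OHT day 4 replicates 3 and 4 or DMSO day 4 replicates 1, 2 and 3 was left out (adjusted p 0.0510 to 0.0743), and the day 2 call ended in the fit over all 16 libraries (adjusted p = 0.0521). Counted as 1 feature with Abcb1a, the pair gave log2 0.12 ± 0.08 at day 2 (edgeR adjusted p = 0.235) and 0.28 ± 0.10 at day 4 (adjusted p = 0.0628).

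Abcc2 (GRCm38 chr19:43782192-43840740), which exports glucuronide and glutathione conjugates, measured 549 to 712 CPM in DMSO and 555 to 722 CPM in 4OHT at day 2. The treatments overlapped almost fully, with a log2 fold change of 0.02 ± 0.09 (edgeR adjusted p = 0.917; 95% interval -0.16 to 0.20). Day 4 values were 394, 403, 382 and 394 CPM in DMSO and 424, 431, 411 and 417 CPM in 4OHT, with no overlap. The difference was small, log2 0.10 ± 0.04 without the block (edgeR adjusted p = 0.123) and 0.10 ± 0.03 with the replicate block (adjusted p = 0.0210).

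Abcg2 (chr6:58584523-58695676), the breast cancer resistance protein gene, measured 74.0 to 87.4 CPM in DMSO and 71.5 to 82.4 CPM in 4OHT at day 2 (log2 -0.07 ± 0.06, edgeR adjusted p = 0.458). Day 4 ranges were 81.2 to 83.1 CPM and 85.5 to 91.6 CPM, which do not overlap. The fold change of log2 0.09 ± 0.04 did not pass without the block (edgeR adjusted p = 0.119) and passed with the replicate block (0.09 ± 0.03, adjusted p = 0.0218).

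**Figure D2:**
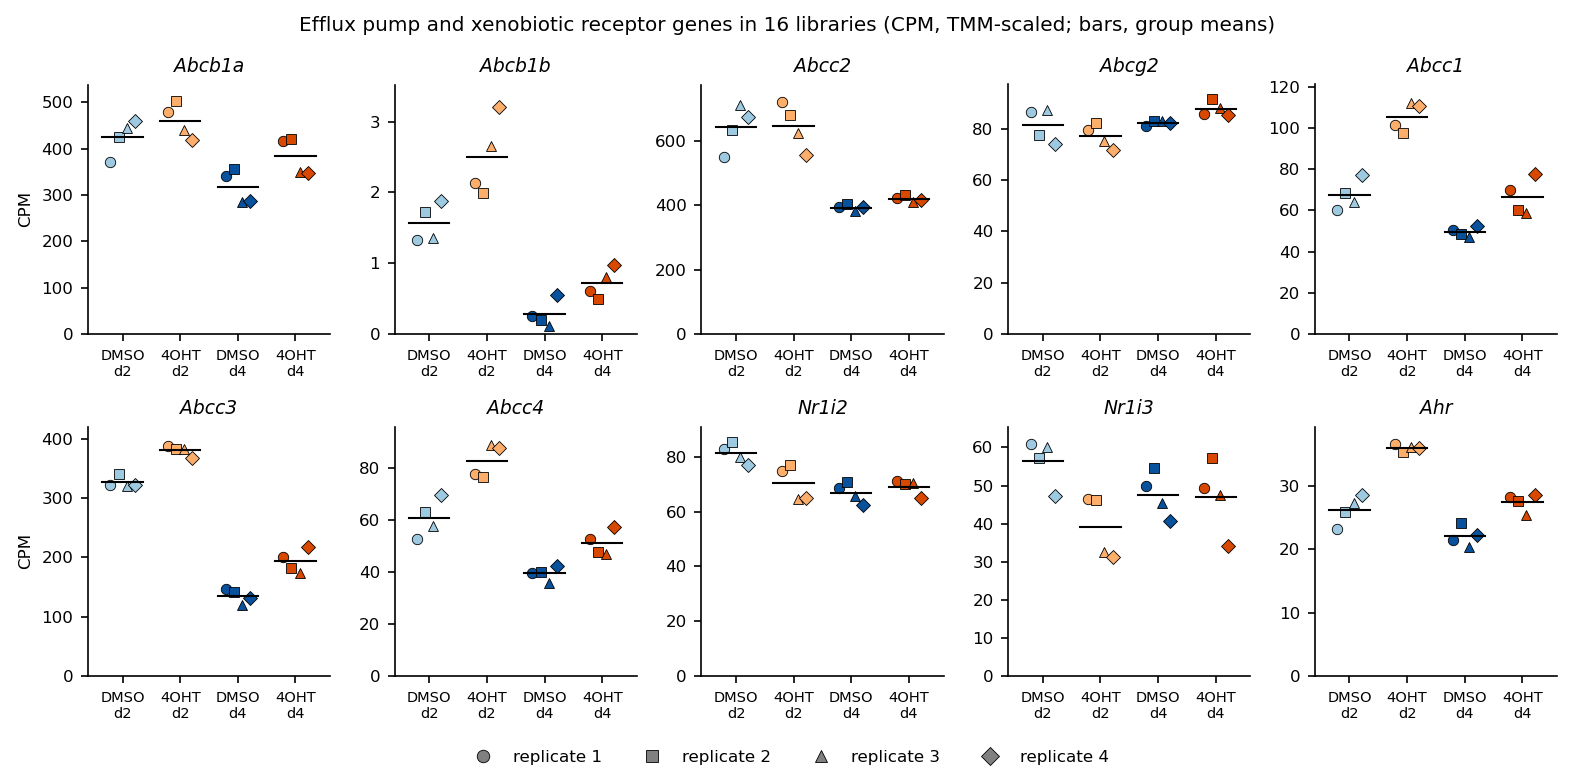
CPM of each gene in the 16 libraries, on linear axes from 0; symbols give the replicate number, bars the group mean. For Abcc1, Abcc3, Abcc4 and Ahr the lowest 4OHT value of each day exceeds the highest DMSO value, and Abcc3 lies lower at day 4 than at day 2.

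The basolateral and related pumps rose on both days. Abcc1 (chr16:14361558-14475737), which exports glutathione conjugates and leukotriene C4, measured 59.99, 68.6, 63.8 and 77.0 CPM in DMSO and 101, 97.5, 112 and 110.5 CPM in 4OHT at day 2. It rose by log2 0.66 ± 0.07, to 158% of the control level (edgeR adjusted p = 4.83e-05). At day 4 it measured 50.4, 48.3, 46.95 and 52.3 CPM against 69.9, 60.3, 58.6 and 77.8 CPM. No libraries of the 2 treatments overlapped on either day, and the day 4 rise was log2 0.43 ± 0.09 (edgeR adjusted p = 0.00497).

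Abcc3 (chr11:94343295-94392997), which exports bile salts and glucuronides towards the blood side, measured 322, 340.3, 321 and 323 CPM in DMSO and 387.5, 384, 383 and 368 CPM in 4OHT at day 2. This rise was small beside a narrow spread, log2 0.23 ± 0.04 (edgeR adjusted p = 0.00124). At day 4 the level was lower in both treatments, 146, 141, 120.1 and 131 CPM in DMSO and 201, 182, 173 and 218 CPM in 4OHT. The groups again lay apart, with a rise of log2 0.53 ± 0.08, to 144% of the control (edgeR adjusted p = 0.00164).

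Abcc4 (chr14:118482692-118706219), which exports cyclic nucleotides, prostaglandins and conjugated steroids, measured 52.6, 62.8, 57.5 and 69.7 CPM in DMSO and 77.7, 76.5, 88.7 and 87.6 CPM in 4OHT at day 2. At day 4 it measured 39.6, 40.1, 35.6 and 42.3 CPM against 52.6, 47.6, 46.8 and 57.3 CPM. Each 4OHT library exceeded each DMSO library of its day. The rises were log2 0.46 ± 0.08 (edgeR adjusted p = 0.00141) and 0.38 ± 0.08 (adjusted p = 0.00499).

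The receptors did not move together. Ahr (chr12:35497974-35535038), whose ligands include dioxins, plant indoles and bacterial tryptophan metabolites, measured 23.3, 25.9, 27.3 and 28.6 CPM in DMSO and 36.7, 35.3, 36.2 and 36.1 CPM in 4OHT at day 2. The 4OHT libraries spread over less than 2 CPM and lay above all controls, a rise of log2 0.47 ± 0.06 (edgeR adjusted p = 0.000121). At day 4 Ahr measured 21.5, 24.2, 20.5 and 22.3 CPM against 28.2, 27.6, 25.4 and 28.6 CPM, again with no overlap (log2 0.31 ± 0.07, adjusted p = 0.00590).

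Nr1i2 (chr16:38248323-38294824), encoding PXR, which binds bile acids, steroids and many drugs, measured 82.9, 85.6, 80.2 and 76.96 CPM in DMSO and 74.9, 77.0, 64.8 and 65.0 CPM in 4OHT at day 2. The groups met at 77 CPM, and the fall was 0.20 ± 0.06 on the log2 scale (log2 fold change -0.20, edgeR adjusted p = 0.0333). This call ended without DMSO day 2 replicate 1 or 2 or 4OHT day 2 replicate 3 or 4 (adjusted p 0.0586 to 0.102). At day 4 it measured 68.8, 71.0, 65.8 and 62.4 CPM in DMSO and 71.1, 70.3, 70.5 and 64.8 CPM in 4OHT, which overlapped (log2 0.05 ± 0.06, edgeR adjusted p = 0.585; 95% interval -0.06 to 0.16).

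Nr1i3 (chr1:171213970-171220701), encoding CAR, measured 60.9, 57.2, 60.2 and 47.4 CPM in DMSO and 46.5, 46.1, 32.5 and 31.3 CPM in 4OHT at day 2. All 4OHT libraries lay below all controls, and the log2 fold change was -0.52 ± 0.13, to 69.9% of the control (edgeR adjusted p = 0.0109). The call ended without DMSO day 2 replicate 1 (adjusted p = 0.0812). Its opposite-strand neighbour Tomm40l gave log2 -0.12 ± 0.04 (adjusted p = 0.0599) at day 2. At day 4 Nr1i3 measured 49.99, 54.6, 45.3 and 40.6 CPM in DMSO and 49.3, 57.3, 47.6 and 34.2 CPM in 4OHT, where replicate 4 was lowest in both. The treatments overlapped there (log2 -0.02 ± 0.15, edgeR adjusted p = 0.946; 95% interval -0.30 to 0.27).

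**Figure D3:**
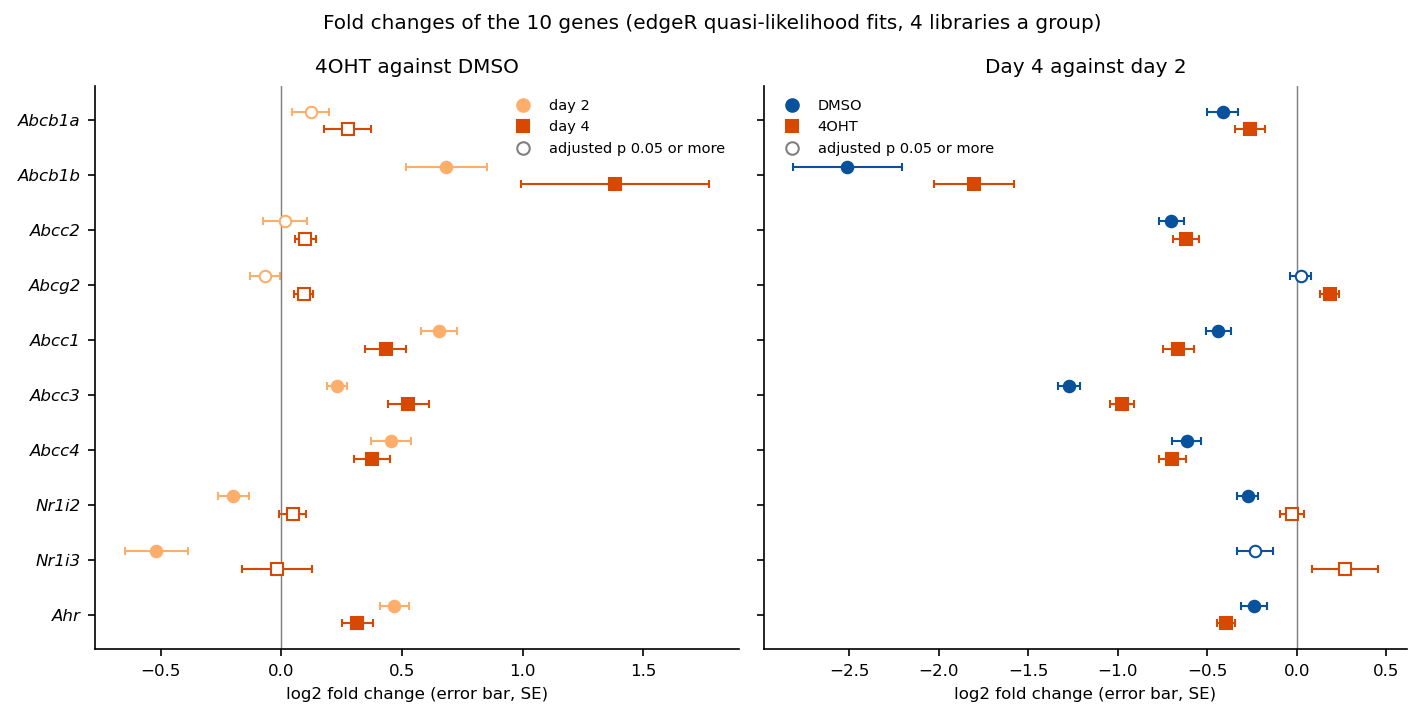
Log2 fold changes of the 10 genes, 4OHT against DMSO on each day (left) and day 4 against day 2 in each treatment (right); bars are SE, and open symbols did not pass an adjusted p of 0.05 in the fit without a replicate block. Abcb1b, Abcc1, Abcc3, Abcc4 and Ahr lie to the right of 0 on both days, and Nr1i2 and Nr1i3 lie to the left at day 2.

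Within replicate numbers at day 4, 8 of the 10 genes were higher in 4OHT in 4 of 4 pairs: all but Nr1i2 (3 of 4) and Nr1i3 (2 of 4). The share of all genes higher in 4 of 4 pairs was not computed. The replicate block fit called 22.8% of all genes higher and 22.2% lower, at an adjusted p below 0.05. That is another criterion than the sign of 4 pairs, so these shares are no background for the 8 genes. The log2 ratios of the pairs were 0.08 to 0.11 for Abcc2, 0.06 to 0.14 for Abcg2, 0.37 to 0.73 for Abcc3 and 0.82 to 2.91 for Abcb1b. At day 2 the numbers do not pair the libraries, and ratios formed the same way spread more widely for Abcb1a (-0.14 to 0.37) and Abcc2 (-0.28 to 0.39).

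**Figure D4:**
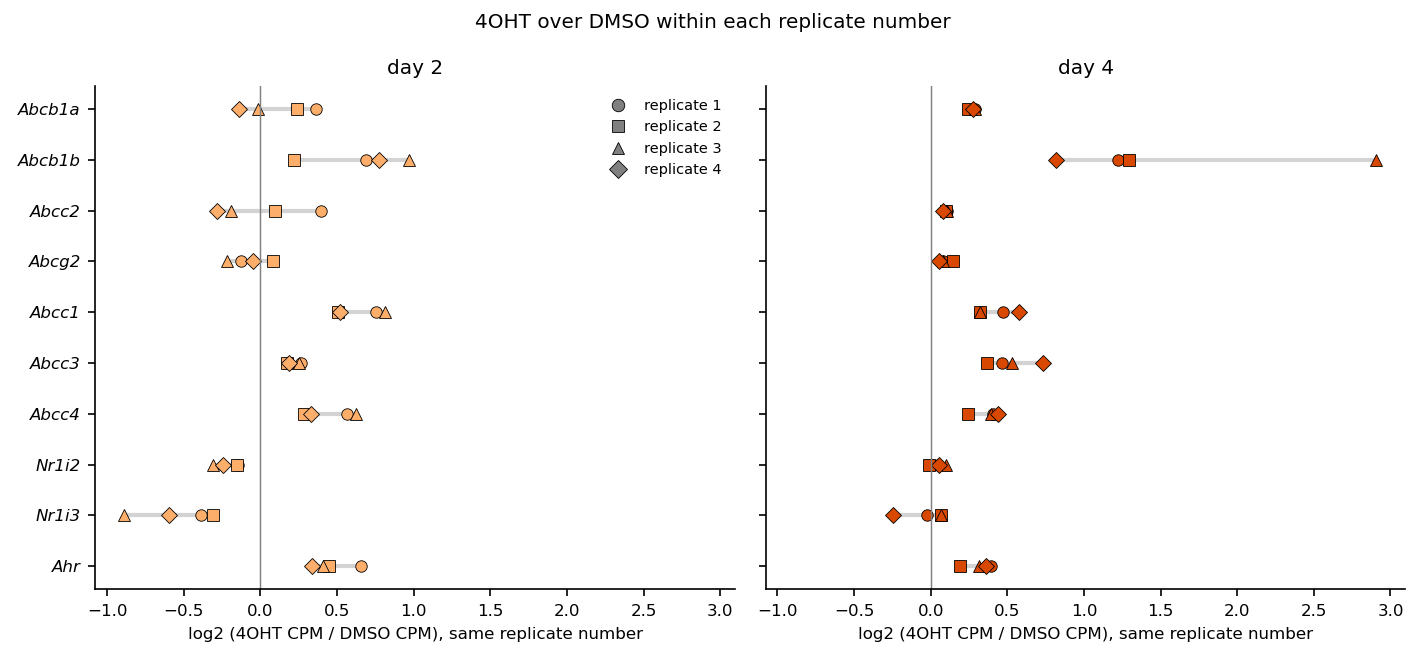
Log2 ratios of 4OHT to DMSO CPM between libraries of the same replicate number, at day 2 and day 4; symbols give the number and grey bars the range. At day 4 the 4 ratios of Abcb1a (0.24 to 0.29) and Abcc2 (0.08 to 0.11) lie close together.

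The time comparison within each treatment asked how the genes differ between the 2 harvest days. Whether the 2 days were handled as separate batches is not stated, so such a batch and the day itself cannot be told apart. The time and treatment comparisons share libraries, so their values are set side by side and not counted as separate evidence. In DMSO, 0 of the 10 genes rose and 8 fell from day 2 to day 4, where 28.7% of 16088 genes rose and 24.8% fell. In 4OHT, 1 rose and 7 fell, against 25.9% and 23.5% of 15962 genes. The median log2 change of the 10 genes was -0.43 and -0.51, and those of all genes tested were 0.03 and 0.01.

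Abcb1b fell furthest, with log2 changes of -2.51 ± 0.30 in DMSO and -1.80 ± 0.22 in 4OHT, to 17.6% and 28.6% of the day 2 level (edgeR adjusted p = 2.42e-05 and 8.95e-05). Abcc3 followed with -1.27 ± 0.06 and -0.98 ± 0.07 (adjusted p = 1.06e-08 and 2.49e-06), and Abcc2 changed by -0.70 ± 0.07 and -0.62 ± 0.07. Abcc4 changed by -0.62 ± 0.08 and -0.70 ± 0.07, Abcc1 by -0.44 ± 0.07 and -0.66 ± 0.09, and Ahr by -0.24 ± 0.07 and -0.40 ± 0.05, all called. Abcb1a changed by -0.41 ± 0.09 and -0.26 ± 0.08. Its call in 4OHT ended when 4OHT day 2 replicate 1 or 2 or 4OHT day 4 replicate 3 was left out (adjusted p 0.0628 to 0.0722).

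Abcg2 departed from the other pumps over time. It measured log2 0.02 ± 0.06 in DMSO, which did not pass, and rose by log2 0.18 ± 0.05 in 4OHT (edgeR adjusted p = 0.0137). Nr1i2 fell by 0.27 ± 0.06 on the log2 scale in DMSO (log2 -0.27, adjusted p = 0.00145) and measured -0.03 ± 0.07 in 4OHT. Nr1i3 measured -0.24 ± 0.10 (adjusted p = 0.0691) and 0.27 ± 0.18 (adjusted p = 0.260). With Nr1i3 in DMSO, Tomm40l measured log2 -0.25 ± 0.05 (adjusted p = 0.00118). The Nr1i3 value in DMSO passed by DESeq2 (adjusted p = 0.0297), with DESeq2 size factors in edgeR (adjusted p = 0.0432), and without DMSO day 2 replicate 4 (adjusted p = 0.00885) or DMSO day 4 replicate 2 (adjusted p = 0.0150).

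Whether the 4OHT difference itself changed between days was tested as the interaction of day and treatment over all 16 libraries. Of the 10 genes 0 passed, by edgeR and by DESeq2, where 1.68% of 16597 genes passed by edgeR. The 1.68% does not apply to the looser threshold of an unadjusted p below 0.05. At least 2838 of the 16597 genes met that threshold, among them 4 of the 10. These 4 were Abcc3 (difference of log2 fold changes, day 4 minus day 2, 0.30 ± 0.10, edgeR adjusted p = 0.115), Nr1i2 (0.25 ± 0.09, adjusted p = 0.147), Nr1i3 (0.51 ± 0.23, adjusted p = 0.260) and Abcg2 (0.17 ± 0.08, adjusted p = 0.284). With a replicate block on the day 4 libraries alone, chosen after seeing the data, Abcc3 passed (0.30 ± 0.07, edgeR adjusted p = 0.0260). The difference for Abcb1b was 0.71 ± 0.42 (adjusted p = 0.395), with an interval of -0.11 to 1.53. The calls of Nr1i2 and Nr1i3 at day 2 and not at day 4 are thus not shown by this fit to be a difference between days.

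Of 16 partners of the receptors, 2 rose and 2 fell at day 2, beside 16.9% and 14.3% of all genes. At day 4, 1 rose and 1 fell, beside 13.7% and 11.1% of all genes. With the replicate block 2 rose and 6 fell, beside 22.8% and 22.2% of all genes in that fit. Of the 8 day 4 fits that left out 1 library, 2 called any fall. Rxra, the retinoid X receptor that pairs with PXR and CAR, fell by 0.24 ± 0.06 on the log2 scale (log2 -0.24, edgeR adjusted p = 0.00684) and Rxrb by 0.19 ± 0.05 (log2 -0.19, adjusted p = 0.0103) at day 2, and at day 4 they measured -0.11 ± 0.04 and -0.07 ± 0.04. Rxra was called lower at day 4 with the replicate block (edgeR adjusted p = 0.00931), and Rxrb was not (adjusted p = 0.0624). Arnt, the partner of AHR, measured 0.10 ± 0.04 and 0.06 ± 0.04, and did not pass on either day. Ncoa3, a coactivator, rose by log2 0.43 ± 0.07 and 0.24 ± 0.05. Ahrr, the AHR repressor and a target of AHR, rose at day 2 by log2 1.06 ± 0.26 (adjusted p = 0.00926) from a very low level and measured -0.07 ± 0.32 at day 4. The same gene is counted again among the targets of AHR below.

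Known target genes of PXR and CAR, mostly described in mouse liver, gave different counts on the 2 days. Of 15 tested, 1 rose and 8 fell at day 2 (median log2 -0.36), and 4 rose and 1 fell at day 4 (median log2 0.10; 7 and 1 with the replicate block). Shares of all genes that rose and fell were 16.9% and 14.3% at day 2 and 13.7% and 11.1% at day 4 (22.8% and 22.2% with the replicate block). The summed level of the 15 genes present in both tables was 6124 to 6620 CPM in DMSO and 4253 to 6138 CPM in 4OHT at day 2, and 3002 to 3156 and 3489 to 3955 CPM at day 4. The treatments overlapped slightly at day 2 and not at day 4. Leaving out single libraries left 6 to 11 falls at day 2, fewest without 4OHT day 2 replicate 3, and 3 to 5 rises at day 4. Several of these genes are close copies of others (Cyp2c, Cyp3a, Ces2, Gstm), whose reads may be shared.

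At day 2, Cyp2c29 (log2 -0.61 ± 0.13), Gstm3 (-0.51 ± 0.11) and Cyp2b10, a classic CAR target (-0.47 ± 0.11), fell most, and Gstm1 (-0.43 ± 0.09) and Aldh1a1 (-0.36 ± 0.11) also fell. Cyp3a11, the best known mouse PXR target and named here after its values were seen, measured -0.36 ± 0.11 (edgeR adjusted p = 0.0256). The calls of Aldh1a1 and Cyp3a11 ended when single libraries were left out, up to adjusted p = 0.120 and 0.132 without DMSO day 2 replicate 1. Gsta1, a glutathione transferase, rose by log2 0.25 ± 0.06. At day 4, Gsta1 rose by log2 0.81 ± 0.10, the carboxylesterase gene Ces2a by 0.64 ± 0.07 and Cyp3a13 by 0.40 ± 0.05. Cyp2c29 fell (log2 -0.55 ± 0.15), a call that ended without 2 single libraries (up to adjusted p = 0.0520).

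For this list the interaction called 7 of 15 genes, all with the higher value at day 4 (median 0.45), against 1.68% of all genes in either direction. They included Ces2a (0.88 ± 0.16), Gstm1 (0.64 ± 0.11), Cyp3a13 (0.64 ± 0.12), Aldh1a1 (0.63 ± 0.16) and Gsta1 (0.57 ± 0.13). The calls of Aldh1a1 and Gsta1 ended in 13 and 10 of the 16 fits that left out 1 library (adjusted p up to 0.115 and 0.0841). The count was 3 without 4OHT day 2 replicate 3 and at most 8 with another library left out. In DMSO, 13 of the 15 fell from day 2 to day 4 (median log2 -0.72), beside 24.8% of all genes. Among the 13 were Gsta1 (log2 -1.65 ± 0.08) and Cyp2b10 (log2 -1.34 ± 0.09).

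Of 9 targets of AHR tested, 3 rose and 1 fell at day 2 (median log2 -0.08), and of 8 tested 5 rose and 1 fell at day 4 (median log2 0.39). Shares of all genes that rose and fell were 16.9% and 14.3% at day 2 and 13.7% and 11.1% at day 4. The day 4 rises included Ugt1a6a and Ugt1a7c, which share exons and are counted again among the conjugation genes below. Cyp1a1, the most inducible AHR target, measured log2 -0.09 ± 0.21 at day 2 (edgeR adjusted p = 0.793) and rose by log2 0.56 ± 0.11 at day 4 (adjusted p = 0.00459). Its level at day 4 was also low (mean log2 CPM 1.16). Cyp1b1 rose by log2 1.76 ± 0.24 and 1.02 ± 0.20, and Aldh3a1, also a gene of stratified epithelia, rose by log2 3.19 ± 0.20 at day 2, both from low levels. Tiparp, a feedback inhibitor of AHR, fell on both days (log2 -0.19 ± 0.06 and -0.24 ± 0.05), and its day 2 call ended without 4OHT day 2 replicate 3 (adjusted p = 0.0554). Nqo1 rose at day 4 by log2 0.26 ± 0.07, a call that ended without 4 single libraries (up to adjusted p = 0.0693), and with single libraries left out 3 to 6 rises were called at day 4 (3 without 4OHT day 4 replicate 3). For AHR targets the interaction called 1 of 9, beside 1.68% of all genes.

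Conjugation genes encode conjugating enzymes, whose products include cargo of ABCC pumps, and enzymes that supply their substrates, among them Papss2 and Gclc. They showed 2 rises and 9 falls among 23 tested at day 2 (median log2 -0.16). At day 4, 12 rose and 0 fell (median log2 0.22). Shares of all genes that rose and fell were 16.9% and 14.3% at day 2 and 13.7% and 11.1% at day 4. Sult1c2, a sulfotransferase, rose by log2 0.93 ± 0.09 and 1.02 ± 0.14. Ugt1a9 (log2 -0.81 ± 0.14), Ugt2b36 (-0.68 ± 0.12) and Ugt2b5 (-0.64 ± 0.15) fell most at day 2, the last not called without DMSO day 2 replicate 1 (adjusted p = 0.0764). Papss2, which makes the sulfate donor, and Gclc, which makes the precursor of glutathione, rose at day 4 by log2 0.66 ± 0.08 and 0.56 ± 0.07. The Ugt1a genes share exons and the Ugt2b genes are close copies, so their counts are uncertain. With single libraries left out, 6 to 12 falls were called at day 2 (6 without DMSO day 2 replicate 1) and 8 to 12 rises at day 4 (8 without 4OHT day 4 replicate 3). The interaction called 7 of 23, beside 1.68% of all genes, and 0 of 23 without 4OHT day 2 replicate 3.

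**Figure D5:**
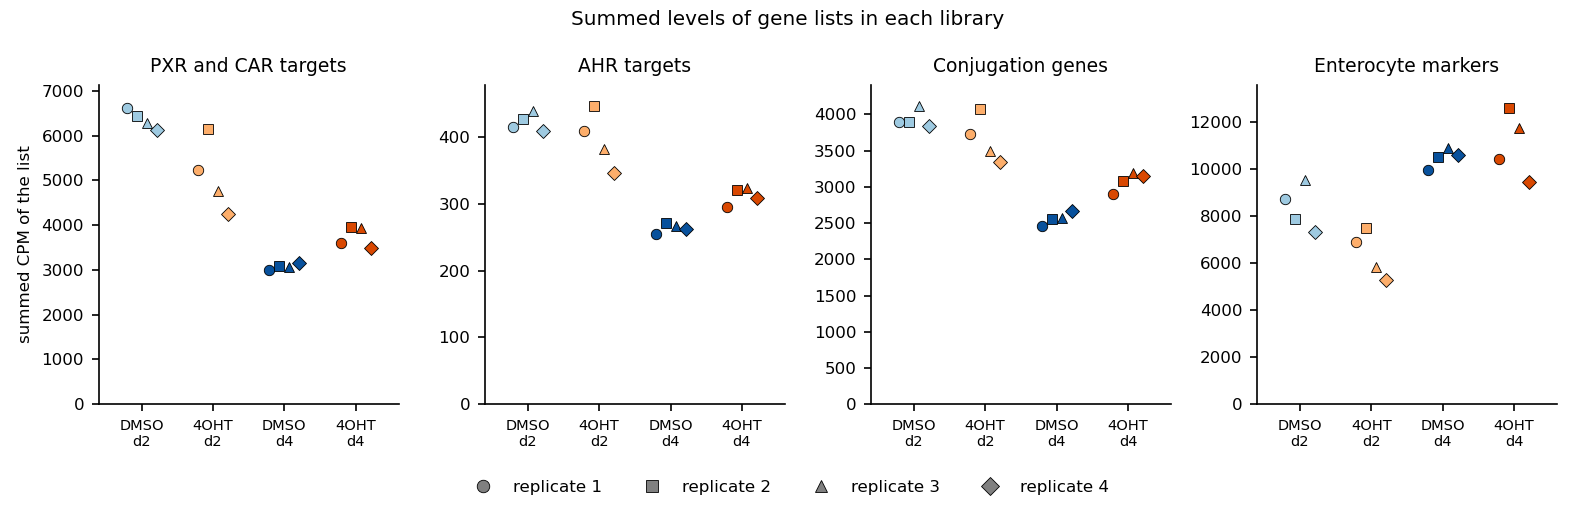
Summed CPM of PXR and CAR targets, AHR targets, conjugation genes and enterocyte markers in each library, on linear axes from 0; symbols give the replicate number. PXR and CAR targets are lower at day 4 than at day 2 in every library, and enterocyte markers are lower in 4OHT than in DMSO at day 2 except that 4OHT replicate 2 lies above DMSO replicate 4.

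Other transporters moved in both directions. Beside them, 16.9% of all genes rose and 14.3% fell at day 2, and 13.7% and 11.1% at day 4. Of other ABC transporter genes, 8 rose and 5 fell of 30 tested at day 2 and 9 rose and 1 fell of 27 at day 4 (medians log2 0.07 and 0.13). With single libraries left out, 2 to 6 falls were called at day 2: 2 without 4OHT day 2 replicate 4 or DMSO day 2 replicate 1 or 2, and 3 without replicate 3 of either treatment. The single fall at day 4 was called in 2 of 8 such fits. Abcc8, a subunit of ATP-sensitive potassium channels, rose by log2 1.12 ± 0.13 and 1.17 ± 0.19, and Abcc5, a nucleotide exporter, by 0.33 ± 0.08 at day 2, while Abcc6 (log2 -0.44 ± 0.13) and Abcg8 (-0.30 ± 0.08), which exports sterols with Abcg5, fell at day 2. The latter calls each ended without DMSO day 2 replicate 1 (adjusted p = 0.0872 and 0.0794). Of 19 uptake transporters, 11 fell and 3 rose at day 2, and 9 fell and 2 rose at day 4 (medians log2 -0.27 and -0.26). Their sums were 477.6 to 507.5 CPM in DMSO and 398 to 408 in 4OHT at day 2, and 562 to 582 and 445 to 464 at day 4, apart on both days. Slc22a3, an organic cation transporter, fell on both days, at day 4 by log2 -1.23 ± 0.09, as did Slc29a1, a nucleoside transporter (log2 -0.54 ± 0.04 and -0.65 ± 0.05). Slc10a2, the ileal bile acid transporter, rose by log2 0.96 ± 0.13 and 1.68 ± 0.37 from a low level.

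Of other ligand or stress sensors, 5 rose and 4 fell of 19 at day 2 and 6 rose and 2 fell of 20 at day 4 (8 and 6 with the replicate block). Shares of all genes that rose and fell were 16.9% and 14.3% at day 2 and 13.7% and 11.1% at day 4. With the replicate block they were 22.8% and 22.2%. With single libraries left out, 3 to 8 falls were called at day 2 (8 without DMSO day 2 replicate 4), and 1 in place of 2 at day 4 in 7 of 8 such fits. Rarg rose by log2 0.92 ± 0.05 and 0.80 ± 0.16, and Pparg by 0.69 ± 0.05 and 0.66 ± 0.14. Vdr, the vitamin D receptor, fell by 0.45 ± 0.10 on the log2 scale at day 2 (log2 -0.45) and measured -0.15 ± 0.09 at day 4, where it was called lower with the replicate block (edgeR adjusted p = 0.00345). Nfe2l2 (NRF2), which acts through the antioxidant response element, rose by log2 0.28 ± 0.05 and 0.40 ± 0.05, and Hnf4g, the paralog of Hnf4a, rose at day 4 by 0.51 ± 0.06.

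Cell type markers also differed between the groups. Among all genes, 16.9% rose and 14.3% fell with 4OHT at day 2, and 13.7% and 11.1% at day 4. From day 2 to day 4 these shares were 28.7% and 24.8% in DMSO and 25.9% and 23.5% in 4OHT. Of 14 enterocyte markers, 10 fell and 0 rose at day 2 (sums of 7305 to 9515 CPM in DMSO and 5288 to 7472 in 4OHT), and 0 fell and 3 rose at day 4 (9945 to 10890 and 9433 to 12580 CPM). With single libraries left out, 5 to 11 enterocyte markers fell at day 2 (5 without DMSO day 2 replicate 1), and 2 to 5 rose at day 4 (5 without 4OHT day 4 replicate 4). The interaction of day and treatment called 1 of the 14 enterocyte markers, beside 1.68% of all genes, and 0 to 7 with single libraries left out. Goblet cell markers rose in 6 of 8 cases on both days (sums at day 2 of 4913 to 5665 and 7397 to 9506 CPM, at day 4 of 4022 to 5202 and 7335 to 9299 CPM). Stem cell markers fell in 6 and 7 of 8 cases (4OHT sums of 1007 to 1133 and 2662 to 3189 CPM) and Paneth cell markers in 5 of 8 on each day. Gastric and squamous markers rose in 7 of 7 and 5 of 5 tested cases (sums at day 2 of 94.1 to 117 and 531.5 to 644 CPM, at day 4 of 11.5 to 21.3 and 71.4 to 235.5 CPM). From day 2 to day 4, stem cell markers rose in 8 of 8 cases in both treatments (DMSO sums of 1564 to 1848 and 3910 to 4324 CPM), and gastric and squamous markers fell in 5 of 5 in DMSO and 6 of 7 in 4OHT. Over the same interval, 7 of 14 enterocyte markers rose and 4 fell in DMSO, and 10 rose and 3 fell in 4OHT. Paneth cell markers rose in 6 of 8 cases in DMSO (sums of 1946 to 2502 and 2545 to 3149 CPM) and 7 of 8 in 4OHT (1581 to 1750 and 2272 to 2468 CPM). Enteroendocrine markers summed to 269 to 411 CPM, and of 8 tested 1 fell at day 2 and 1 rose at day 4. Over time 4 of these 8 rose in DMSO and 5 in 4OHT, and 0 fell. Tuft cell markers summed to 7.67 to 24.5 CPM, with 1 of 5 tested higher at day 2 and 2 of 6 at day 4. Over time 4 of 5 tuft cell markers rose in DMSO and 5 of 6 in 4OHT. The part of these shifts in the changes of the 10 genes was not tested. Markers of stromal, immune and endothelial cells were near the floor: 3 of 7 stromal and 4 of 9 immune or endothelial markers had no row in either table, and the rest summed to 8.11 to 11.4 and 2.34 to 3.94 CPM.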

How the data were processed

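Libraries were made from poly(A) RNA (250 ng of total RNA) with a directional kit, per the labels' protocols. STAR 2.4.0f1, bcl2fastq 1.8.4 and the build GRCm38 are named in the submitters' processing notes. How reads were counted, with which annotation and strand setting, is not given in the sources used here. The authors deposited whole-number read counts per gene, 1 table a day, with row sums of at least 10 over 8 libraries; other deposited columns were not used.

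Tests on counts used edgeR 4.0.16 in R 4.3.3 (with limma 3.58.1; TMM, filterByExpr, robust quasi-likelihood, Benjamini-Hochberg adjusted p below 0.05 over all genes tested), 8 libraries per comparison and 16 for the interaction. SE is the absolute log2 fold change over the square root of F. CPM used TMM over 16 libraries. Library totals (63.8 M to 93.3 M) limit precision, and the counts are without molecular identifiers. The binomial interval of the Abcb1b share covers counting error only. The 95% intervals of fold changes come from the SE of the fit, which includes the spread between libraries. They use a normal quantile, so they are narrower than intervals from the F distribution of the test would be. Coordinates are from GENCODE M21, 1-based. The code was tested on simulated data.

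Same-numbered libraries of the treatments deviated together at day 4 (correlations 0.623 to 0.805, 8 of 8 libraries closest to their own number) and not at day 2 (-0.108 to 0.468). The pairing rests on the data, as the labels name no shared batch. Between days the correlations were 0.068 to 0.186 in DMSO and -0.221 to 0.394 in 4OHT.

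The 10 genes, the gene lists and the tests were chosen with earlier results of these data known. Named from each list were up to 3 rises and 3 falls of the largest size (adjusted p below 0.05, mean log2 CPM of at least 1) in either treatment comparison and the 2 of highest level; all receptor partners and AHR targets could be named. Alternatives were DESeq2 1.42.0, its size factors, other filters, a replicate block, a stricter threshold, all 16 libraries, the Abcb1 pair summed, and each library left out.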

Additional observations from a re-analysis of the deposited data

Results flagged for a closer look

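Of the 40 sets of 4 libraries (10 genes in 4 groups), 2 held a library far from the other 3 by Dixon's test at 95%, and chance alone flags about 1 in 20. Abcc3 measured 340.3 CPM in DMSO day 2 replicate 2 and 321 to 323 CPM in the other DMSO libraries of that day. For Nr1i2 the day 4 4OHT libraries measured 70.3 to 71.1 CPM except replicate 4, at 64.83 CPM, which also stood apart on the second principal component.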

How the results depend on the processing

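No value of the 10 genes called in any fit changed sign under the alternatives run. With the replicate block, the number of the 10 genes called at day 4 was 8 in place of 5 (added: Abcb1a, Abcc2, Abcg2) and that of all genes 7216 in place of 3967. For the interaction, 3 of the 10 genes and 1850 of all genes passed with the replicate block within day (Abcc3, Nr1i2 and Nr1i3), though the day 2 numbers do not pair. With the replicate block on the day 4 libraries only, added after seeing the data, 1 of the 10 and 965 of all passed, against 278 in the fit without a block. DESeq2 called 836 genes for the interaction. At an adjusted p below 0.01, all genes called numbered 2976 at day 2 (4950 at 0.05), 2188 at day 4 (3967) and 28 for the interaction (278). Leaving out single libraries gave 94 to 727 genes for the interaction (94 without 4OHT day 2 replicate 3, 727 without DMSO day 2 replicate 4). The causes were not tested. Between days the replicate numbers do not pair the libraries. In the time comparisons the replicate block added the call of Nr1i3 in DMSO (edgeR adjusted p = 0.0101) and in 4OHT (adjusted p = 0.0221). It changed no other call of the 10 genes there. Leaving out single libraries left 5 to 7 of the 10 genes called at day 2, 4 to 5 at day 4, 8 to 9 over time in DMSO and 7 to 8 in 4OHT. At a minimum of 1 CPM in 4 libraries Abcb1b was not tested at day 4. Depth limits Abcb1b most, at 7 to 79 counts a library at day 4. Counts under each list's alternatives were added after seeing the data.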
